A study of Mus musculus with 12 samples.

Results

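The genes described here encode matrix proteins of cartilage other than its collagens, and they were measured by RNA sequencing of the mouse cochlea. The 9 genes, taken by symbol among the 34538 genes of the deposited tables, are Acan, Hapln1, Comp, Matn1, Matn3, Matn4, Cnmd, Ucma and Snorc, and all 9 were found. The libraries came from wild type C57BL/6J mice aged 12 months. Control mice drank normal water, coffee mice drank water with 0.1% black coffee, and green tea extract (GTE) mice drank water with 0.006% of the extract, the additions being given from 3 months of age until 12 months. Each group had 4 libraries, named here by group and replicate number. Whether each library is a different mouse is not stated in the labels. The p-values therefore reflect library-to-library spread, some of which may be technical. Each library had 20526024 to 24835934 fragments assigned to genes, as recovered from the steps in its values, and its values correlated with those of other libraries of its group at a Pearson r of 0.967 to 0.988. Levels are given in FPKM (fragments scaled for transcript length and library depth), which allows genes of different length to be set side by side.

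Cartilage resists compression because aggrecan, the product of Acan, binds water through its chondroitin sulfate chains and is held on hyaluronan by the link protein Hapln1. Comp, a thrombospondin, and the matrilins (Matn1, Matn3 and Matn4) are adaptors that join collagen fibrils to each other and to proteoglycans. Chondromodulin, the product of Cnmd, keeps blood vessels out of cartilage, Ucma is a vitamin K-dependent Gla protein secreted by young chondrocytes, and Snorc is a transmembrane proteoglycan of cartilage. The bony capsule around the cochlea is laid down as cartilage in the embryo and is later replaced by bone, and the membranous inner ear keeps matrix proteins that it shares with cartilage.

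In GENCODE M21 annotation of the mm10 genome, the build of the files, Ucma (ENSMUSG00000026668) lies at chr2:4976122-4985748 on the plus strand and Cnmd (ENSMUSG00000022025) at chr14:79637690-79662170 on the minus strand. Acan (ENSMUSG00000030607) is at chr7:79053483-79115099, plus. Hapln1 (ENSMUSG00000021613) is at chr13:89539796-89611652, plus. Comp (ENSMUSG00000031849) is at chr8:70373558-70382066, plus. Of the matrilins, Matn1 (ENSMUSG00000040533) is at chr4:130944385-130955475, plus, Matn3 (ENSMUSG00000020583) at chr12:8947929-8972028, plus, and Matn4 (ENSMUSG00000016995) at chr2:164389393-164405160, minus. Snorc (ENSMUSG00000026258) is at chr1:87470271-87475482, plus. The exons of a gene together span 722 bases in Snorc to 7469 bases in Acan. Matn4 shares 2.88% of its exon bases with Rbpjl on the opposite strand, and the other 8 genes share none. The strand setting of the counting is not given in the sources used here, so a small part of the Matn4 value may belong to Rbpjl.

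Promoter windows from RefSeq (GRCm38.p6) were matched for 7 of the 9 genes, and those of Comp and Snorc were not analysed here. The 250 bases before the start are shown for Ucma and Cnmd, the members with the highest levels, which also varied together across libraries, and for Acan, the core proteoglycan gene, which was low. They are written 5′ to 3′ along the gene, with the motifs found in capitals.
Ucma, chr2:4975872-4976121, plus strand: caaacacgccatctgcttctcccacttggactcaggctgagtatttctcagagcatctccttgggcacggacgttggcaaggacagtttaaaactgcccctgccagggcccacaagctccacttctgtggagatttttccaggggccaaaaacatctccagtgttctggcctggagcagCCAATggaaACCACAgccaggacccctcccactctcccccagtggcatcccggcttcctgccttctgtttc
Cnmd, chr14:79662184-79662433, minus strand: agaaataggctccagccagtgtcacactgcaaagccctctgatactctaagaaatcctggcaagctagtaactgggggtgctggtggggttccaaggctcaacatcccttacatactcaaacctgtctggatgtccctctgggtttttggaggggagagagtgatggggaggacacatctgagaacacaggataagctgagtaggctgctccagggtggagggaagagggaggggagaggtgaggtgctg
Acan, chr7:79052976-79053225, plus strand: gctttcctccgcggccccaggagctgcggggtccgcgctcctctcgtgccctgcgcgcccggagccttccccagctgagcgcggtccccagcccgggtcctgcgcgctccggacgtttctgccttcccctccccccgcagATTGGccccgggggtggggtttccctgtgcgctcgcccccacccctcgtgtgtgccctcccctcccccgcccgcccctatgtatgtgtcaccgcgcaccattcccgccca
Motifs were searched on both strands. The first SOX motif, bound by factors such as Sox9, was ACAAAG. The second form of it searched was ACAATG. The motif of RUNX factors was spelled TGTGGT. The remaining motifs were the CCAAT box and the TATA box, spelled TATAAA. No 2 matches overlapped. The Ucma window held a CCAAT box 71 bases before the start and, on the reverse strand, a RUNX motif at 62 bases. The Acan window held a CCAAT box on the reverse strand at 110 bases. The Cnmd window held no match. RUNX motifs were also found in the windows of Hapln1 and Matn1, at 160 and 134 bases, and CCAAT boxes in those of Matn3 and Matn4. The starts used here are those of RefSeq and need not match the GENCODE starts given above. The Hapln1 window, chr13:89540386-89540635, lies within the gene as placed there. So does a further Matn4 window, chr2:164404819-164405068, which held no match. No window of a member held either SOX motif or the TATA box. Of the 32851 promoter windows of this length, 16.46% held the first SOX motif and 10.69% the second, 14.05% the RUNX motif, 33.85% a CCAAT box and 12.37% a TATA box. The window of Acan was 74.4% G and C, a higher share than in 95.4% of all windows, while those of Ucma and Cnmd had 56.4% and 54%, near the median of 52.4%. These matches describe letters, not binding.

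The levels of the 9 genes spanned a wide range, and Ucma and Cnmd made up nearly all of the sum. Together they held 89.4% to 95.6% of the summed FPKM of the 9 genes in each library. Ucma had a mean of 188 FPKM over the 12 libraries, higher than 98.9% of the 15854 genes tested. Cnmd followed with 112 FPKM, higher than 97.7% of them. Comp was next at 13.1 FPKM, then Matn4 at 2.70, Acan at 1.97 and Hapln1 at 1.55 FPKM. Matn1 averaged 0.610 FPKM, Snorc 0.0593 and Matn3 0.056 FPKM.

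This order of levels held in most libraries. Ucma was above Cnmd in 12 of 12 libraries, by a ratio of 1.40 to 2.48, and Cnmd was above Comp and Comp above Matn4 in 12 of 12. Neighbours further down lay closer: Matn4 exceeded Acan in 11 of 12, Acan exceeded Hapln1 in 10 of 12 and Hapln1 exceeded Matn1 in 11 of 12. Snorc and Matn3 could not be ordered, Snorc being higher in 5 of 12. The mean level of Ucma was 95.3 times that of Acan and 16.3 times that of Col2a1, the main fibril collagen of cartilage, which averaged 11.5 FPKM. For Cnmd the ratios of mean levels were 56.8 to Acan and 9.75 to Col2a1. Acan, Matn1, Matn3 and Snorc, which mark hyaline cartilage, were thus low to barely detected in these samples. Other cartilage genes were not low, with means of 78.7 FPKM for Col11a2, 31.7 for Col9a2 and 27.5 for Sox9. The name of the set says only where the genes are best known, and the cells that made these RNAs were not tested. Of the markers of the labelled tissue, Coch and Otos, both genes of spiral ligament fibrocytes, had means of 1909 and 290.4 FPKM.

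**Figure D1:**
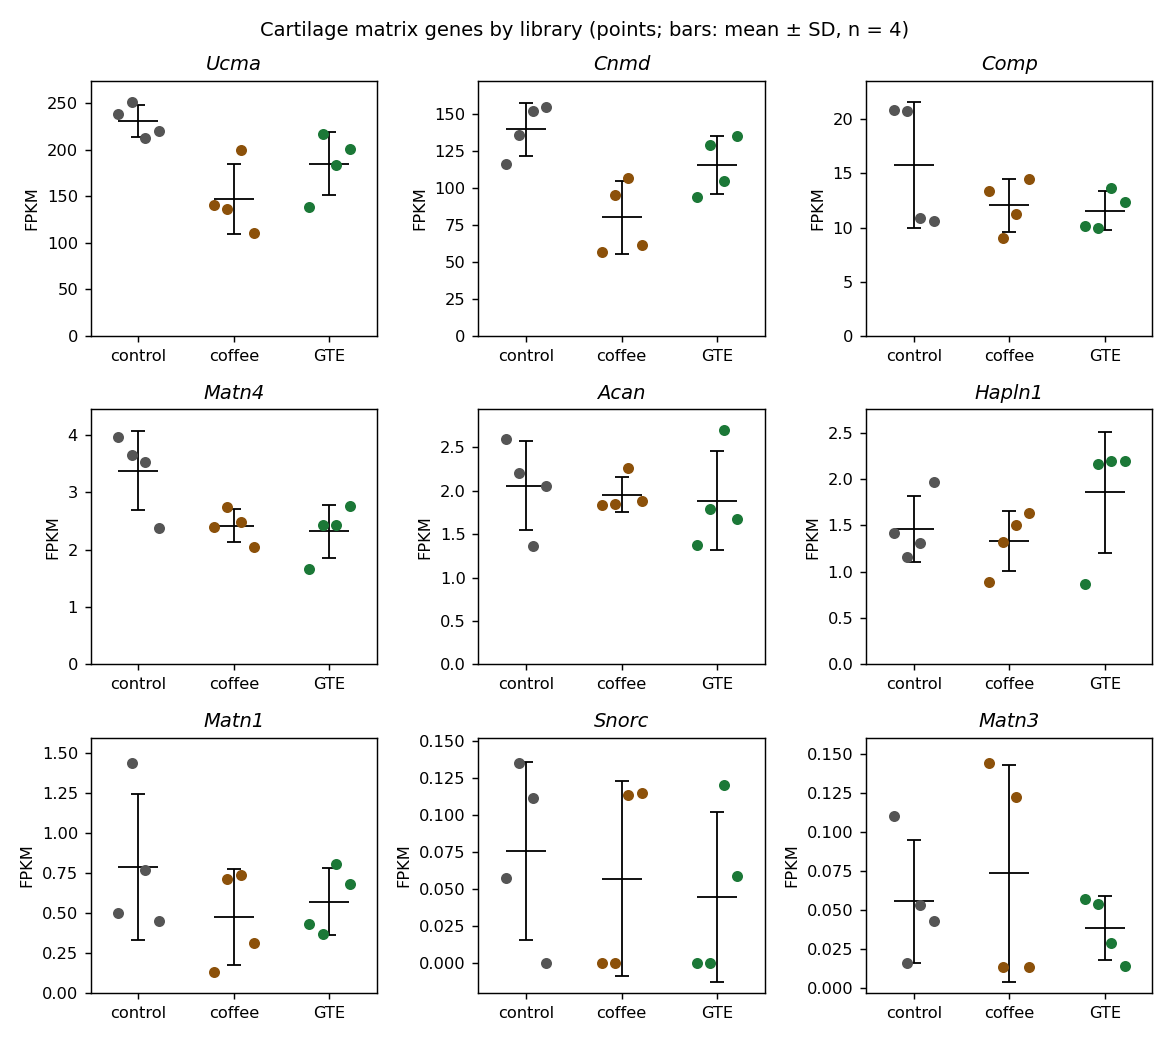
FPKM of each gene (y axis, a separate scale for each panel) in the 4 control, 4 coffee and 4 GTE libraries (points), with the group mean and SD (bars). The 4 coffee libraries lie below the 4 control libraries for Ucma and for Cnmd, and the groups overlap for the other 7 genes.

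For Ucma, the control libraries 1 to 4 had 239, 251, 213 and 221 FPKM, the coffee libraries 141, 136, 199.8 and 111 FPKM, and the GTE libraries 139, 217, 183 and 201 FPKM. Every coffee library was below every control library, and GTE 1, GTE 3 and GTE 4 were too. Coffee 3 stood apart from the other coffee libraries, near the lowest control. Group means were 231 ± 17.4 FPKM in control, 147 ± 37.6 in coffee and 185 ± 33.7 in GTE (SD, n = 4), so that coffee stood at 63.6% and GTE at 80.1% of control.

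For Cnmd, the control libraries had 116, 135, 152 and 155 FPKM, the coffee libraries 56.7, 95.2, 107 and 61.8 FPKM, and the GTE libraries 93.6, 129, 105 and 135 FPKM. Coffee was again entirely below control, with coffee 1 and coffee 4 lowest, whereas GTE overlapped both. The means were 139.6 ± 17.7 FPKM in control, 80.1 ± 24.7 in coffee and 115.6 ± 19.6 in GTE (SD, n = 4), with coffee at 57.4% and GTE at 82.8% of control. In both genes each step of the order control, GTE, coffee was wider than the larger SD of the 2 groups it separated.

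The difference between coffee and control in these genes did not pass the test across all genes. The test was limma on log2(FPKM + 1), with Benjamini-Hochberg adjustment over the 15854 genes that reached 1 FPKM in at least 4 libraries and a threshold of 0.05. Cnmd differed by -0.84 (SE 0.20, 95% interval -1.29 to -0.39, adjusted p = 0.199, limma), and Ucma by -0.68 (SE 0.18, 95% interval -1.06 to -0.29, adjusted p = 0.199, limma). An exact two-sided permutation test over the 70 arrangements of the 8 libraries gave p = 0.0286 for each, the smallest it can give with 4 against 4. When libraries were weighted by quality, both passed, Cnmd at -0.90 (adjusted p = 0.0231, limma) and Ucma at -0.83 (adjusted p = 0.0189, limma), in a fit that called 15.4% of all genes. Without coffee 3, Ucma stood at -0.84 (adjusted p = 0.0462, limma) and 98 genes passed in all, against 1 with every library.

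Of the 6 members tested, 0 passed in coffee against control, where 0.00631% of all genes tested did (1 gene). All 3 members with an unadjusted p under 0.05, Cnmd, Ucma and Matn4, were lower in coffee. Over all genes, 10.8% (1708 genes) were lower at that unadjusted level and 9.25% (1467 genes) higher, a split that became 2232 lower and 1074 higher after quantile normalization. Groups that did not overlap, with coffee lower, were seen in 2 of the 6, against 6.89% of all genes, and 5.93% of all genes had coffee entirely higher. The median log2 difference of the 6 was -0.33, and that of all genes 0.010. All 6 tested members had a lower mean log2 level in coffee than in control, as had 48.2% of all genes. Under other settings this held for Cnmd, Ucma, Comp and Matn4 but not for Acan and Hapln1, whose differences were close to 0.

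Comp, which carries mutations in a human dwarfism, pseudoachondroplasia, showed a different pattern across libraries. Control libraries 1 to 4 had 20.8, 20.7, 10.8 and 10.6 FPKM, coffee 13.4, 9.06, 11.2 and 14.5 FPKM, and GTE 10.2, 9.98, 13.7 and 12.4 FPKM. Control 1 and control 2 lay above all other libraries, while control 3 and control 4 lay within the range of both treated groups. The group means were 15.7 ± 5.82, 12.0 ± 2.41 and 11.6 ± 1.79 FPKM (SD, n = 4) in control, coffee and GTE. The log2 difference was -0.31 for coffee against control (95% interval -0.82 to 0.20, adjusted p = 0.442, limma) and -0.36 for GTE against control (95% interval -0.87 to 0.15, adjusted p = 0.624, limma). Among the markers of osteoblasts and osteocytes, 12 of which were listed and tested, control 1 and control 2 were also the highest libraries, at a mean log2(FPKM + 1) of 6.04 and 6.00, against 5.10 and 4.98 in control 3 and control 4. The part of bone cells in the Comp values was not tested.

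Matn4, a matrilin also found outside cartilage, had 3.96, 3.65, 3.52 and 2.38 FPKM in control libraries 1 to 4. Coffee libraries had 2.39, 2.74, 2.48 and 2.05 FPKM, and GTE libraries 1.66, 2.42, 2.43 and 2.75 FPKM. Control 1, 2 and 3 were above all 8 treated libraries, and control 4 lay among them. The means were 3.38 ± 0.692 FPKM in control, 2.42 ± 0.284 in coffee and 2.32 ± 0.465 in GTE (SD, n = 4). The log2 difference from control was -0.35 in coffee (SE 0.14, adjusted p = 0.223, limma) and -0.40 in GTE (SE 0.14, adjusted p = 0.559, limma). Neither passed, and the exact permutation test gave p = 0.114 for each. In the fit with quality weights the coffee difference was -0.43 (adjusted p = 0.0434, limma).

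Acan did not separate the groups. Its control libraries had 2.60, 2.20, 1.37 and 2.06 FPKM, its coffee libraries 1.84, 1.85, 2.26 and 1.89 FPKM, and its GTE libraries 1.37, 1.79, 2.70 and 1.67 FPKM. The highest and the lowest libraries of all were a GTE and a control library, and 3 of the 4 coffee values lay close together, with coffee 3 above them. The log2 difference was -0.03 for coffee against control (95% interval -0.37 to 0.30, adjusted p = 0.906, limma) and -0.09 for GTE against control (95% interval -0.42 to 0.25, adjusted p = 0.857, limma). Each library had 239 to 469 Acan fragments.

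Hapln1, which locks aggrecan to hyaluronan, had 1.42, 1.16, 1.31 and 1.97 FPKM in control, 0.890, 1.32, 1.51 and 1.63 FPKM in coffee and 0.872, 2.16, 2.20 and 2.20 FPKM in GTE. GTE 2, 3 and 4 were above all other libraries, and GTE 1 was the lowest of the 12. The GTE difference from control was 0.19 on the log2 scale (95% interval -0.22 to 0.60, adjusted p = 0.732, limma), and without GTE 1 it was 0.38 (adjusted p = 0.756, limma). Coffee differed from control by -0.08 (95% interval -0.49 to 0.33, adjusted p = 0.825, limma).

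Matn1, Matn3 and Snorc stayed below the filter of the test. Matn1 reached 1 FPKM in 1 library, control 2 with 1.44 FPKM. In fragments, Matn1 had 24, 59, 38 and 21 in control, 6, 34, 36 and 15 in coffee and 20, 18, 37 and 32 in GTE, with group sums of 142, 91 and 107. The groups overlapped, and the exact permutation test gave p = 0.314 for coffee against control and p = 0.457 for GTE against control. Matn3, mutated in a human epiphyseal dysplasia, had 1 to 10 fragments in a library and 48 in all. Snorc had 0 to 2 fragments in a library and 12 in all, and it was at 0 in 5 libraries. A count of 0 allows up to 3 fragments. Over all 12 libraries 3 fragments equal 0.167 to 0.202 FPKM, the ends being control 3 and control 2, which did hold Snorc fragments. Differences in Matn3 and Snorc were not detectable at this depth. These limits cover counting error only.

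In GTE against control, 0 of the 6 tested members passed, where 0.00631% of all genes tested did (1 gene), and 1 member, Matn4, had an unadjusted p under 0.05 on the lower side, as had 4.30% of all genes, with 4.14% higher and 8.43% in either direction. The split of all genes at that level was 681 lower and 656 higher, or 795 and 502 after quantile normalization. Ucma differed by -0.33 (SE 0.18, 95% interval -0.72 to 0.05, adjusted p = 0.574, limma) with an exact permutation p of 0.0571. Cnmd differed by -0.28 (SE 0.20, 95% interval -0.73 to 0.17, adjusted p = 0.657, limma). Of the 6, 5 had a lower mean log2 level in GTE, the exception being Hapln1, against 48.4% of all genes. No member had groups that did not overlap, a pattern seen with GTE lower in 2.95% and higher in 2.88% of all genes. Coffee and GTE were each set against the same 4 control libraries, so a high control library lowers both differences.

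In GTE against coffee, the difference of means and the exact test do not use the control libraries. The SE, interval and limma p-values do, because all 12 libraries share a single estimate of the spread. Cnmd was higher in GTE by 0.56 (SE 0.20, 95% interval 0.11 to 1.01, adjusted p = 0.718, limma), and 4.52% of all genes were higher and 2.23% lower at an unadjusted p under 0.05. The exact permutation test gave p = 0.143, since GTE 1 and GTE 3 lay within the coffee range. Ucma was higher by 0.34 (SE 0.18, 95% interval -0.04 to 0.73, adjusted p = 0.738, limma), and Hapln1 by 0.27 (95% interval -0.14 to 0.68, adjusted p = 0.780, limma). Matn4, Acan and Comp differed by -0.05 each, with intervals of -0.35 to 0.25, -0.39 to 0.28 and -0.55 to 0.46. None of the 6 members passed, nor did any gene (0%). At an unadjusted p under 0.05, 6.76% of all genes differed. The groups did not overlap in 0 of the 6 members, against 1.70% of all genes with GTE higher and 0.839% with GTE lower.

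**Figure D2:**
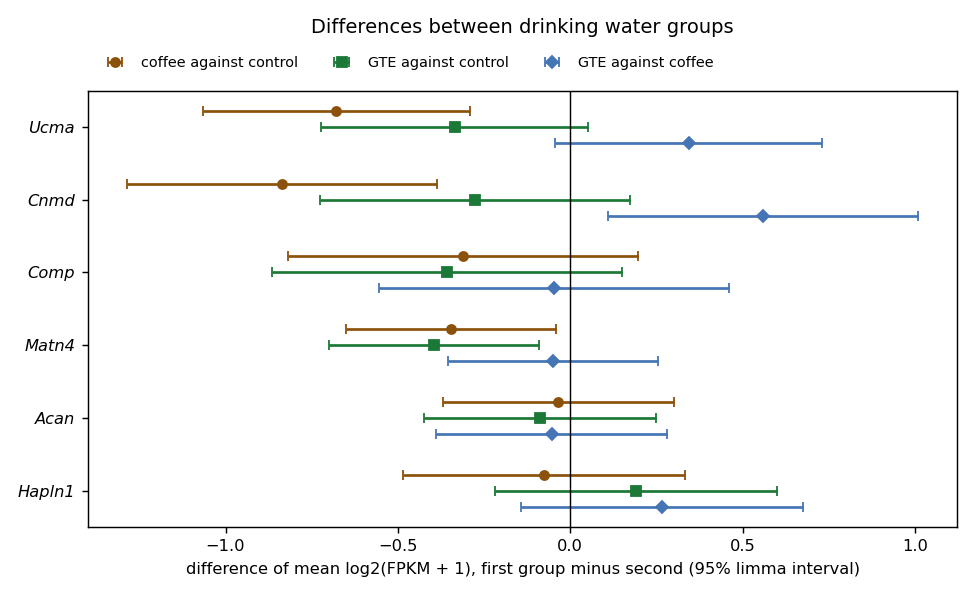
Difference of mean log2(FPKM + 1) between groups (x axis, first group minus second) for the 6 tested genes, with 95% limma intervals (bars). For Ucma and Cnmd the coffee against control interval ends below 0, at -0.29 and -0.39, and for Acan all 3 intervals include 0.

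The 6 tested members did not vary as a block across libraries. The following Pearson correlations of log2(FPKM + 1) over the 12 libraries are descriptions: the values of a library share its depth and its tissue makeup, and the groups differ. Cnmd and Ucma went together, with an r of 0.84 over all libraries and 0.63 within groups, that is, after each group's mean was subtracted. Ucma stood at 1.68 ± 0.322 times Cnmd in control, 1.89 ± 0.437 in coffee and 1.60 ± 0.135 in GTE (SD, n = 4). Matn4 followed Ucma with an r of 0.68, or 0.55 within groups. Acan and Comp formed another pair at 0.57, within groups as well, while Comp and Cnmd were unrelated over all libraries, at -0.06, and opposed within groups, at -0.54. Acan and Cnmd had an r of 0.01, and Acan and its partner Hapln1 one of 0.33.

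Cnmd and Ucma went with genes of the lateral wall of the cochlea, whose stria vascularis and spiral ligament secrete endolymph and recycle potassium, and also with other cartilage matrix genes. The mean log2 level of 10 stria genes, among them the potassium channel subunits Kcne1 and Kcnq1, had an r of 0.95 with Cnmd, or 0.90 within groups, and of 0.88 with Ucma, or 0.74 within groups. For 10 spiral ligament fibrocyte genes it was 0.85 with Ucma, or 0.79 within groups, and 0.80 with Cnmd, or 0.51 within groups. The list of other cartilage matrix genes had values of the same order, 0.86 with Ucma, or 0.77 within groups, and 0.77 with Cnmd, or 0.67 within groups. The cartilage collagens had 0.80 with Ucma, or 0.61 within groups, and 0.65 with Cnmd, or 0.11 within groups. Hair cell genes had an r of 0.77 with Ucma and 0.53 with Cnmd. Comp showed no such relation to the lateral wall, with an r of 0.07 to the stria genes. In bulk tissue, fewer cells of a type and less RNA in each cell cannot be told apart.

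**Figure D3:**
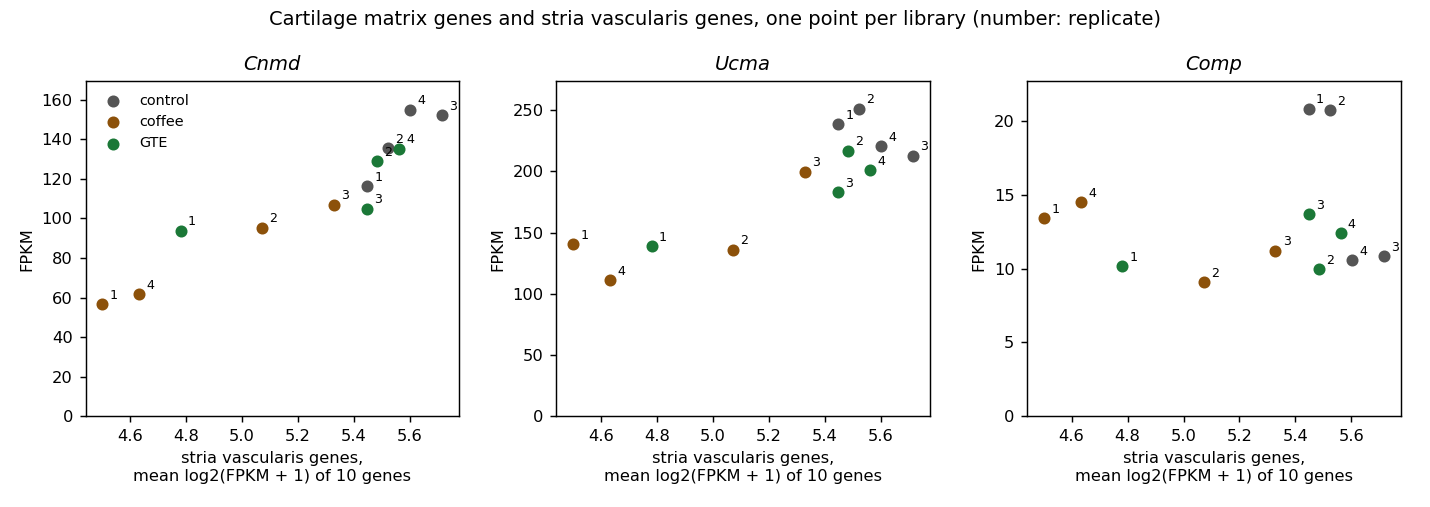
FPKM of Cnmd, Ucma and Comp (y axes) against the mean log2(FPKM + 1) of 10 stria vascularis genes (x axis) in the 12 libraries, each point being a library marked with its replicate number. Coffee 1 and coffee 4 are lowest on both axes for Cnmd, at 56.7 and 61.8 FPKM, while Comp has its highest values in control 1 and control 2.

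The levels of these cell type genes in each group were as follows. The stria list had 11 genes, of which Cldn18 was not tested and was at 0 in all control and GTE libraries. The mean log2 level of the other 10 ran from 4.50 to 5.33 in coffee, from 5.45 to 5.72 in control and from 4.78 to 5.56 in GTE. All 10 were lower in coffee than in control, 9 of them at an unadjusted p under 0.05, with 0 past the adjusted threshold. Of all genes, 48.2% were lower in coffee, and 10.8% were lower at that unadjusted level. The fibrocyte list ran from 6.12 to 6.72 in coffee, from 6.78 to 6.99 in control and from 6.59 to 6.92 in GTE, and 8 of its 10 genes were lower in coffee at an unadjusted p under 0.05, again with 0 past the adjusted threshold. In GTE against control 0 genes of either list had an unadjusted p under 0.05, against 8.43% of all genes. The part of these cells in the Cnmd and Ucma values was not tested.

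Genes of myeloid marrow cells ran the other way. The 16 genes listed, such as the granule enzyme Mpo, had a mean log2 level of 8.62 to 9.40 in coffee, 7.64 to 8.45 in control and 7.97 to 9.55 in GTE. All 16 had a higher mean in coffee than in control, 10 of them at an unadjusted p under 0.05 and 0 past the adjusted threshold. Of all genes, 9.25% were higher in coffee at that unadjusted level. The correlation with this list was -0.79 for Cnmd and -0.73 for Ucma over all libraries, and -0.61 and -0.46 within groups. Red cell precursors, the other marrow lineage listed, did not separate coffee from control: their mean log2 level ran from 4.62 to 6.77 in coffee, 5.13 to 5.91 in control and 5.74 to 7.41 in GTE. Of these 11 genes, 4, all globins, had a lower mean log2 level in coffee than in control and 7 a higher one. Of them, 0 had an unadjusted p under 0.05. The correlation with that list was -0.54 for Cnmd and -0.61 for Ucma over all libraries, but -0.86 and -0.82 within groups, and the part of red cell precursors was not tested. With the myeloid marrow level as a covariate, coffee differed from control by -0.47 for Cnmd (adjusted p = 0.477, limma) and by -0.44 for Ucma (adjusted p = 0.486, limma). That level did not overlap between coffee and control. In this and the later fits with it, coffee and marrow level therefore cannot be told apart. Without the 3 libraries highest in marrow genes (GTE 1, coffee 1 and coffee 4), the differences were -0.46 for Cnmd and -0.48 for Ucma (adjusted p = 0.461 each, limma), over 2 coffee libraries. In these fits Matn4 stood at -0.22 and -0.26.

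**Figure D4:**
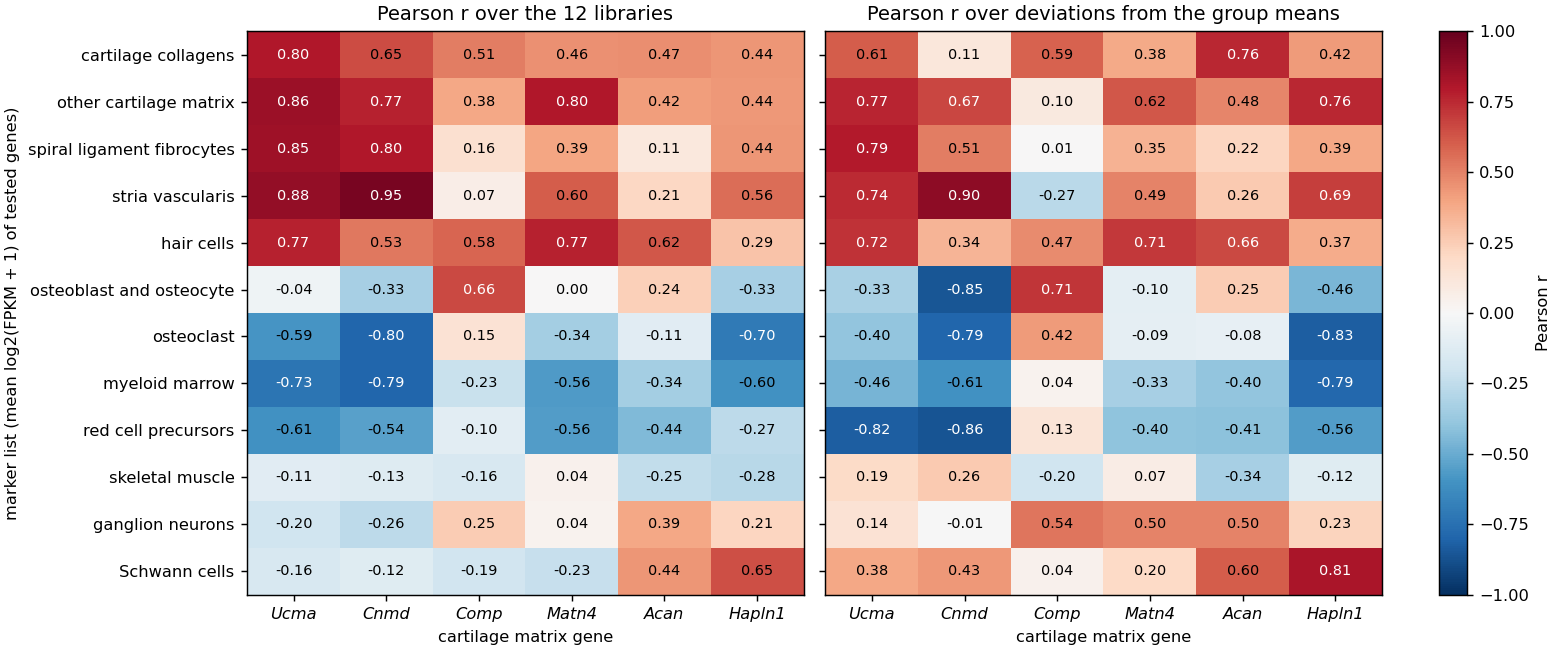
Pearson r between each tested cartilage matrix gene (columns) and the mean log2(FPKM + 1) of marker lists (rows), over the 12 libraries (left) and over deviations from the group means (right). Cnmd and Ucma are positive with stria genes, at 0.95 and 0.88, and negative with myeloid marrow genes, at -0.79 and -0.73, and Comp is positive with osteoblast genes, at 0.66.

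The other members went with further lists and in part with those of Cnmd and Ucma. Comp went with osteoblast and osteocyte genes at an r of 0.66, or 0.71 within groups, where Cnmd had -0.33 and -0.85. It also went with the thrombospondin list, its own protein family plus Tnmd, at 0.85. Hapln1 went with Schwann cell genes at 0.65, or 0.81 within groups. It also had 0.56 with stria genes, or 0.69 within groups, and -0.60 with myeloid marrow genes, or -0.79 within groups. Acan had an r of 0.47 with the cartilage collagens, or 0.76 within groups, and 0.62 with hair cell genes, or 0.66 within groups. Matn4 had 0.80 with other cartilage matrix genes, or 0.62 within groups, and 0.77 with hair cell genes, or 0.71 within groups.

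Likeness was sought among 12063 tested genes outside the members, with a symbol and a mean of at least 2 FPKM. Clone, predicted, pseudogene and mitochondrial genome names were left out. Of the genes compared, those most like each member across the 12 libraries were picked by Pearson r of log2(FPKM + 1). For Cnmd they were Zfp185 (0.98), Cystm1 (0.98) and Mlana (0.97), for Ucma Cers5 (0.98), Fuca1 (0.97) and Coch (0.97). The picks for Comp were Cd200 (0.93), Slit3 (0.92) and Serpinf1 (0.91), and those for Matn4 were Ltbp3 (0.94), Zfp324 (0.93) and Loxl1 (0.92). Acan was most like Nudt13 (0.90), Apcdd1 (0.88) and Sik3 (0.86), and Hapln1 most like Extl2 (0.95), Rpp14 (0.95) and Zranb2 (0.95). No gene was picked for more than 1 member. The mean standardized profile of the 6 was closest to Bbs2 (0.98), Pald1 (0.94), Zfp521 (0.94), Pcdhgc3 (0.94), Adgra2 (0.94), Fcgrt (0.94), Fkbp9 (0.94), Col9a2 (0.94), Acss3 (0.93) and Tm2d2 (0.93). Such values are the extremes of many genes over few libraries.

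The collagens that form fibrils with these proteins were lower in coffee without passing the test. Of 8 listed genes 7 were tested, 7 had a lower mean log2 level in coffee than in control, and 4 had an unadjusted p under 0.05, all lower, with a median of -0.28. The shares of all genes at that level, for this list and the following ones, were 10.8% lower and 9.25% higher in coffee, and 4.30% lower and 4.14% higher in GTE. Col11a2, a chain of the fibril core, had 90.1 ± 9.59 FPKM in control, 64.9 ± 6.06 in coffee and 81.0 ± 6.58 in GTE (SD, n = 4), a coffee difference of -0.46 (adjusted p = 0.199, limma). The type IX chains Col9a2 and Col9a3, which decorate the fibril surface, differed by -0.58 and -0.44, and Col27a1 by -0.27. With the mean of the myeloid marrow genes as a covariate, these 3 stood at -0.17, -0.11 and -0.023, and Col11a2 at -0.41. Col2a1 itself had 11.2 ± 3.44, 10.6 ± 4.15 and 12.6 ± 3.28 FPKM. In GTE against control the median was -0.12 and 0 of the 7 had an unadjusted p under 0.05.

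Other non-collagen matrix genes gave a similar count. Of 18 listed 16 were tested, and 14 had a lower mean log2 level in coffee than in control. An unadjusted p under 0.05 was seen in 7, all lower, and the median of the list was -0.28. Mgp, a Gla protein like Ucma that inhibits calcification, had 553 ± 120 FPKM in control, 315 ± 27.0 in coffee and 332 ± 76.4 in GTE (SD, n = 4), differences of -0.79 and -0.74 (adjusted p = 0.199 and 0.498, limma). The lectin Clec3a differed by -1.03 in coffee and -0.48 in GTE, and the cytokine-like Cytl1 by -0.72 and -0.57. Epyc, a small leucine-rich proteoglycan, differed by -0.80 and -0.18, and it shares 40.6% of its exon bases with a gene on the opposite strand. With the marrow covariate the coffee differences of Cytl1 and Epyc were -0.39 and -0.49. Over the alternatives, the covariate included, Mgp ran from -0.85 to -0.70 in coffee and Clec3a from -1.18 to -0.74. In GTE against control 5 of the 16 had an unadjusted p under 0.05, all lower, with a median of -0.30. None of these genes passed over all genes.

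Genes that make the sugar chains did not move one way. Of 23 genes of chondroitin sulfate synthesis 22 were tested, with a median of -0.01 in coffee against control, 2 lower and 5 higher at an unadjusted p under 0.05. Csgalnact2, which adds the first sugar of the repeating chain, stood at 0.58 in coffee and 0.42 in GTE, and the sulfotransferase Chst12 at 0.80 and 0.52, whereas Chst11, which sulfates the same position, stood at -0.35 and -0.09. Chpf2, a chain polymerizing factor, stood at 0.31 in coffee, and shares 44.1% of its exon bases with Smarcd3. Of 10 genes of hyaluronan and lectican partners 6 were tested, all with a higher mean in coffee and a median of 0.44, and 1, the hyaluronan receptor Cd44, had an unadjusted p under 0.05. Cd44 stood at 0.55 in coffee and 0.34 in GTE, and the lectican Vcan at 0.53 and -0.09. Bcan and Hapln2, the brain forms of lectican and link protein, stood at 0.49 and 0.40 in coffee. With the marrow covariate the coffee differences of Cd44 and Vcan were -0.043 and -0.21, those of Csgalnact2, Chst12, Chst11 and Chpf2 were 0.25, 0.15, -0.18 and 0.18, and those of Bcan and Hapln2 were 1.07 and 1.15.

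The regulators of chondrocytes gave 1 gene lower and 1 higher at an unadjusted p under 0.05 among 14 tested of 18, with a median of -0.07 in coffee against control. Scrg1 stood at -0.39, Runx3, a RUNX factor of chondrocyte maturation, at 0.60, the growth factor receptor Fgfr3 at -0.32 and Zbtb20 at -0.30. Sox9, the master factor of cartilage genes such as Acan and Col2a1, had 29.6 ± 5.58 FPKM in control, 23.8 ± 5.51 in coffee and 29.0 ± 8.07 in GTE (SD, n = 4), a coffee difference of -0.31 (adjusted p = 0.438, limma). Among matrix proteases and inhibitors 12 of 14 were tested, with a median of -0.28, 4 lower and 2 higher. The membrane protease Mmp14 stood at -0.35, the inhibitor Timp2 at -0.35 and the aggrecan-cleaving Adamts15 and Adamts1 at -0.33 and -0.45 in coffee. Other enzymes that cleave aggrecan lay on the opposite side in coffee, Adamts5 at 0.24 and Adamts4 at 0.28. In GTE, Adamts5 stood at 0.37 and Adamts4 at -0.13. Adamts5 had an unadjusted p under 0.05 against control in both groups, and Adamts4 in neither. With the marrow covariate the coffee differences of Runx3, Fgfr3, Timp2, Adamts15 and Adamts1 were 0.14, -0.20, -0.16, -0.22 and -0.23. Over the alternatives, the covariate included, Scrg1 ran from -0.47 to -0.31 in coffee and Mmp14 from -0.44 to -0.31. Of the 5 thrombospondin and Tnmd genes, all tested, 2 were lower at an unadjusted p under 0.05. Tnmd, the tendon homologue of Cnmd, stood at -0.46, or -0.84 to -0.39 over the alternatives. Thbs2 stood at -0.40 (-0.22 with the marrow covariate), while Thbs3 stood at -0.15 and Thbs1 at 0.40. In GTE against control the medians of these lists were -0.01 for regulators, 0.07 for chondroitin sulfate synthesis, -0.13 for hyaluronan partners, -0.23 for proteases and -0.21 for thrombospondins. No gene of the 7 lists passed the adjusted threshold in any of the 3 comparisons.

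**Figure D5:**
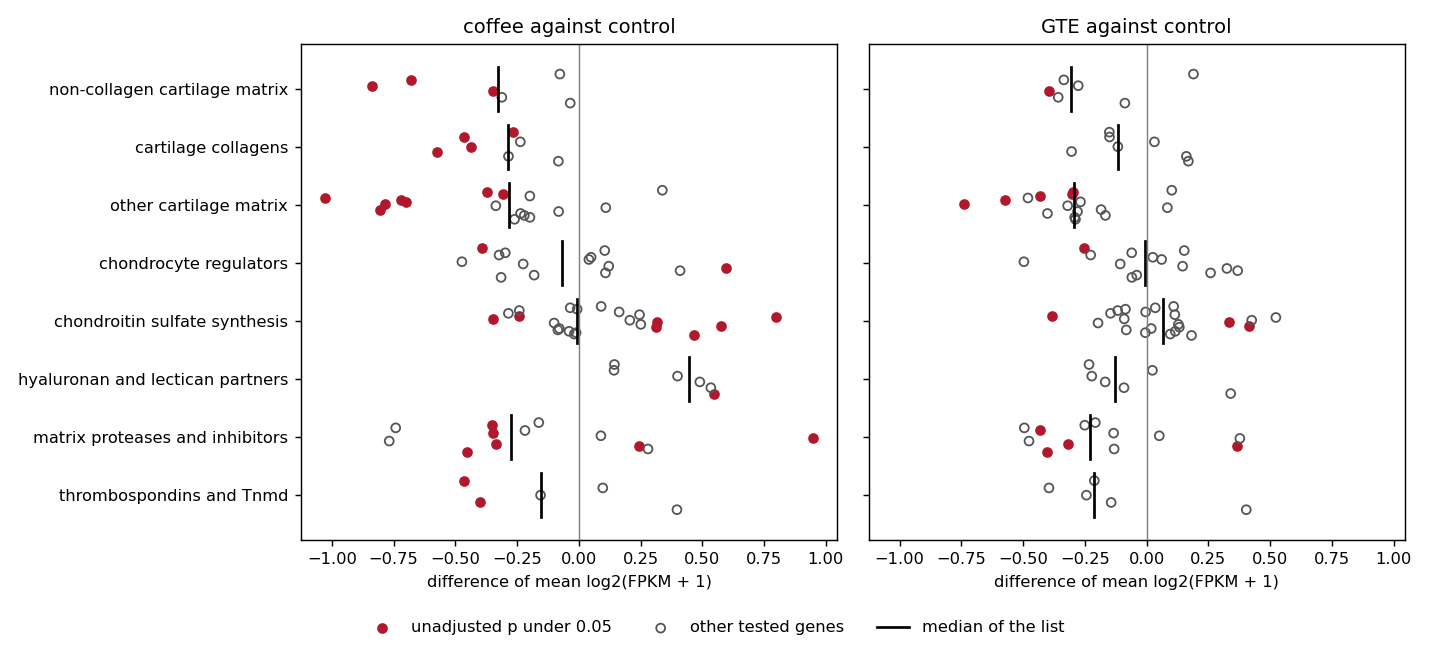
Difference of mean log2(FPKM + 1) of each tested gene (points) from control in coffee (left) and GTE (right), by gene list (rows), with the list median (vertical bars) and unadjusted p under 0.05 filled. The non-collagen cartilage matrix genes have medians of -0.33 and -0.31, and the hyaluronan and lectican partners 0.44 and -0.13.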

How the data were processed

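RNA of 12 cochlear libraries was sequenced from stranded poly(A) libraries (TruSeq), per the labels' protocols. The authors deposited FPKM values per Ensembl gene. Trimmomatic, HISAT2, HTSeq and Cufflinks and the build mm10 are named per the submitters' processing notes. What each did, its version and the strand setting were not stated. FPKM was used as deposited, on the log2(FPKM + 1) scale, which understates differences of low genes. The pseudocount was 1. limma 3.58.1 (R 4.3.3) was fitted with 3 group means over 12 libraries, empirical Bayes moderation with a variance trend and Benjamini-Hochberg adjustment over 15854 genes, and was tested on simulated data. Exact tests used scipy 1.17.1. Multiplied by exon length (GENCODE M21) and a factor for each library, FPKM gave whole fragments within 0.01 for 31897 of 34538 genes (92.4%), with 2641 needing a different length. Symbols were found for 99.77% of genes.

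The members and the 17 other gene lists (197 distinct genes, 178 tested) were chosen with earlier results of these data known. The genes named were all members, up to 4 genes of each cartilage list with the smallest p in coffee against control, and the genes most like the members. Col2a1, Sox9, Adamts4, Adamts5, Coch, Otos and the other genes of the closing section were named in addition, after their values were seen, as were Kcne1, Kcnq1, Cldn18 and Mpo, which illustrate marker lists. Alternatives changed the pseudocount, filter, scaling, variance model, weights, marrow covariate, replicate block and libraries, and the fit on recovered fragments (limma's voom) was chosen after seeing the data.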

Additional observations from a re-analysis of the deposited data

Results flagged for a closer look

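In 27 groups (9 genes in 3 groups of 4 libraries) the highest and lowest libraries were compared with the rest of their group by Dixon's test at 95%, which chance passes in about 1 in 20 groups, and 2 passed. Acan in the coffee group had its highest value, 2.26 FPKM, in coffee 3, with the other 3 libraries close together below it. Hapln1 in the GTE group had its lowest value, 0.872 FPKM, in GTE 1, which was also the library with the highest mean level of myeloid marrow genes. The part of marrow in the Hapln1 value was not tested.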

How the results depend on the processing

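In coffee against control, 0 members passed under each alternative run except quality weights (3: Cnmd, Ucma and Matn4) and leaving out single libraries (0 to 1, the 1 being Ucma without coffee 3). The weights ran from 0.213 for GTE 1 to 2.26 for control 1. In the other comparisons 0 members passed under every alternative run. Over all genes, the 1 gene passing in coffee against control became 0 with no filter, TPM, TPM without mitochondrial genes, only the 8 libraries compared, no variance trend, robust moderation, the replicate block or without the 3 libraries highest in marrow genes, 4 with the marrow covariate, 2437 with weights, and 0 to 98 leaving out single libraries (98 without coffee 3, 28 without GTE 1). The 1 gene in GTE against control became 0 with TPM without mitochondrial genes, the 8 libraries, the block, the marrow covariate or without the 3 libraries, 4 with weights, and 0 to 1 leaving out single libraries. The 0 genes in GTE against coffee became 365 with weights and 0 to 1 leaving out single libraries.

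Of 18 member differences 12 kept their direction throughout. In coffee against control, Cnmd ran from -0.90 to -0.46 over the alternatives and from -0.99 to -0.69 leaving out single libraries, and Ucma from -0.83 to -0.44 and from -0.84 to -0.56. Among the members, small differences turned over. Acan in coffee against control was 0.13 with the marrow covariate, 0.011 without the 3 libraries and -0.15 to 0.049 leaving out single libraries. Hapln1 in the same comparison was 0.34 with the covariate and -0.14 to 0.022 leaving out single libraries. Acan in GTE against control was 0.000374 with the covariate. In GTE against coffee, Acan was 0.00124 with quantile normalization, 0.077 with weights and -0.18 to 0.034 leaving out single libraries, Comp was 0.22 without the 3 libraries and -0.16 to 0.043 leaving out single libraries, and Matn4 was 0.083 with weights and -0.11 to 0.053 leaving out single libraries. Larger differences of other listed genes turned over too. In coffee against control the main fit gave Zbtb20 -0.30, Cd44 0.55, Vcan 0.53, Thbs3 -0.15 and Thbs1 0.40. With the covariate these were 0.050, -0.043, -0.21, 0.034 and -0.43, and Thbs1 was -0.17 without the 3 libraries. The causes of these moves were not tested.

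Same-numbered libraries of different groups had correlations of -0.38 to 0.55 in their deviations from the group means. Those with different numbers had -0.56 to 0.53. Both ranges are wide, so they cannot settle whether the numbers pair libraries. With the replicate number as a block, 0 members passed in each comparison. The planned edgeR and DESeq2 fits were not run, because the deposited values are not counts, and voom on recovered fragments stood in for them. Depth limits Matn3 and Snorc, which had at most 10 and 2 fragments in a library.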

Other observations

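Relatives of the members were measured beside them. Matn2, the matrilin of many tissues, was the highest matrilin, at 12.4 ± 3.38 FPKM in control, 9.93 ± 0.623 in coffee and 9.89 ± 2.22 in GTE (SD, n = 4), with log2 differences of -0.26 and -0.29 from control that did not pass. Among link proteins, the brain forms Hapln4 and Hapln2 had means of 13.9 and 7.36 FPKM over the 12 libraries, above Hapln1, while Hapln3 had 0.138. Brain link proteins came with the brain lectican Bcan at 11.9 FPKM. The hyaluronan synthases Has1, Has2 and Has3 had means of 0.333, 0.209 and 0.639 FPKM and were not tested.

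Of the matrix genes shared by cartilage and the inner ear, Otor, named for its expression in the ear, had 76.4 ± 18.1 FPKM in control, 47.1 ± 15.7 in coffee and 62.0 ± 5.95 in GTE (SD, n = 4), a coffee difference of -0.70 (adjusted p = 0.201, limma). Its relative Mia, a cartilage gene, had 0.086 FPKM. Genes of hypertrophic cartilage were low where they are specific to it, with Col10a1 at 0.119 and Ihh at 0.238 FPKM, while Mmp13, which bone cells also make, had 74.8 FPKM.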
